A study of Arabidopsis thaliana with 10 samples.

Results

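The 8 genes described here mark pattern-triggered immunity and the synthesis of camalexin in Arabidopsis thaliana. They are FRK1 (AT2G19190), NHL10 (AT2G35980), WRKY29 (AT4G23550), GSTF6 (AT1G02930), GSTF7 (AT1G02920), CYP71A12 (AT2G30750), CYP71A13 (AT2G30770) and PAD3 (AT3G26830), and they were picked by identifier from 32833 genes. They were selected on their level in untreated seedlings of Set2 against Set1 and on their change with jasmonic acid (JA) in each set. Their values in these comparisons are therefore given as a description, and nothing is read from the number of them called in the fits over all genes. The data were RNA-seq of whole Col-0 seedlings, the wild-type accession, grown for 10 days in long days. Set2_2hJA (3 libraries) and Set1_2hJA (2 libraries) were exposed to gaseous methyl jasmonate (MeJA), a volatile form of JA, for 2 h. Set2_ctrl (3 libraries) and Set1_ctrl (2 libraries) were left untreated. All groups are wild type by their labels, which name no pathogen or microbial pattern in any of them. The comparison between sets and that with JA in Set1 share the Set1_ctrl libraries.

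In pattern-triggered immunity, receptor kinases at the plasma membrane recognise conserved microbial molecules such as flagellin or chitin. They signal through co-receptors, cytoplasmic kinases, an NADPH oxidase and MAP kinase cascades, and WRKY transcription factors then activate defence genes. One product of this response in Arabidopsis is camalexin, an antimicrobial indole compound made from tryptophan. The cytochrome P450 enzymes CYP79B2 and CYP79B3 make indole-3-acetaldoxime, CYP71A12 and CYP71A13 turn it into indole-3-acetonitrile, glutathione is attached and trimmed, and PAD3 closes the ring. JA is the hormone of wounding and herbivory, and it is known to raise the indole glucosinolate branch that starts from the same aldoxime.

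Bases upstream of the annotated gene start are shown for the 4 genes with the largest ratio of Set2_ctrl to Set1_ctrl levels, to show where they hold or lack the short elements that WRKY factors (the W-box, TTGACC or TTGACT) and MYC2 (the G-box, CACGTG) are known to bind. Each line gives 250 bases of RefSeq TAIR10.1, 5′ to 3′ towards the gene, with matches on either strand in capitals. The lines are FRK1 (chr2:8329945-8330194, minus strand), GSTF7 (chr1:659981-660230, minus strand), CYP71A12 (chr2:13101372-13101621, minus strand) and CYP71A13 (chr2:13111989-13112238, minus strand).
FRK1: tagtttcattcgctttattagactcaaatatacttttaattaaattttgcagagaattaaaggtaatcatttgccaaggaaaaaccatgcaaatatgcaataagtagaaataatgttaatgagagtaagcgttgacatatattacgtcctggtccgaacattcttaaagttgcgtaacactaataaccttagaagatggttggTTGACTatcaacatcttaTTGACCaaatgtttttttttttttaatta
GSTF7: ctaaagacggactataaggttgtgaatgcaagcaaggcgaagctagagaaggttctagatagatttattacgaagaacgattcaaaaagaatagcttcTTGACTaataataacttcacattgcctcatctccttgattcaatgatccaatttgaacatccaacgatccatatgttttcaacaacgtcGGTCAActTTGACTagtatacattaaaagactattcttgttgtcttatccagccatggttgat
CYP71A12: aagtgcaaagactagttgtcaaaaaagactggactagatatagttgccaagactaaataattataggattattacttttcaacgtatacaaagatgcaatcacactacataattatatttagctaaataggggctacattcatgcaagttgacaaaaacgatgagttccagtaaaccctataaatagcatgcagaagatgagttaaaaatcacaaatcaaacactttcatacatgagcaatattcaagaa
CYP71A13: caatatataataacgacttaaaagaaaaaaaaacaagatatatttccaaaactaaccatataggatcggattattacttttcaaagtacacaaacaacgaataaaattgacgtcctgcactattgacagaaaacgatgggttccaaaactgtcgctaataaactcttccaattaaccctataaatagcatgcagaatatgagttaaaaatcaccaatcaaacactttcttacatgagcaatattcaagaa
FRK1 has 2 W-boxes, which end 42 and 24 bases before the start. GSTF7 has 3 W-boxes. No match overlapped another. The annotation of CYP71A12 and CYP71A13 begins at the start codon, and neither window holds these letters. Among other members, WRKY29 has 2 W-boxes, NHL10 has 1 and PAD3 has none. A W-box stood in 4 of the 7 windows examined, against 28.4% of the 27431 windows of nuclear protein-coding genes and 44 of 87 windows (50.6%) of the other pathway genes described below. A G-box stood in 0 of the 7 windows, against 6.49% of all windows. These matches are letters in a window and were not tested as binding sites.

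The libraries of both sets differed in depth and composition. The totals of RSEM expected counts ranged from 6333822 to 7774547 in Set2 and from 12147941 to 17200426 in Set1. Ribosomal RNA genes took up to 11.6% of the counts in Set1 and up to 0.179% in Set2. Set2_2hJA replicate 1 had 8.83 counts per kb in 4741 genes without any count in Set1, while the other Set2 libraries had up to 0.839 counts per kb there. All 5 JA marker genes (MYC2, JAZ9, JAZ10, LOX2 and AOS) were higher after JA in each set. All 10 leaf and 15 root markers had counts in every library. Scaling to library totals in place of TMM, a scaling that is robust to a few very abundant genes, moved the median of all genes in Set2_ctrl against Set1_ctrl by 0.46 on the log2 scale. With it, the calls in this comparison were 2460 higher and 243 lower, against 804 and 668 with TMM. In Set1_2hJA against Set1_ctrl they were 512 and 207, against 591 and 442 with TMM. The set and everything else that differed between the experiments cannot be told apart. The study calls its replicates biological without saying what was kept apart, and p-values measure the spread between these libraries.

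FRK1, a receptor-like kinase and a standard read-out of flagellin perception, is on chromosome 2 (8326049-8329944, minus strand, 13 exons). Levels are given as CPM of the TMM-scaled library total. It had 17.4, 11.1 and 12.5 CPM in Set2_ctrl, against 0.256 and 0.178 CPM in Set1_ctrl. In counts these are 303 summed over Set2_ctrl and 5 summed over Set1_ctrl, a ratio of 62.8 with a counting interval of 26.6 to 194.7 (exact conditional binomial, 95%). The groups did not overlap, and FRK1 was nearly silent in untreated Set1 seedlings. Of 19867 genes with a mean of at least 1 CPM, 23.9% had all Set2_ctrl libraries above all Set1_ctrl libraries. All JA libraries lay above all controls in 25.7% of these genes in Set1 and in 10.7% in Set2. After JA FRK1 had 8.41 and 5.92 CPM in Set1_2hJA, a ratio to Set1_ctrl of 32.1 (13.6 to 100.05, counting error only). In Set2_2hJA it had 35.2, 19.5 and 23.8 CPM, all above the Set2_ctrl libraries, with a log2 fold change of 0.95 (SE 0.25). Of the 331 counts in Set2_2hJA replicate 1, 23.8 would be met by the background per kb of that library. The untreated Set2 seedlings lay above the JA-treated Set1 seedlings in every library.

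NHL10 encodes a membrane protein of the NDR1/HIN1-like family that is induced by bacterial patterns. Its single exon lies on chromosome 2 (15110492-15111539, plus strand), where RefSeq names it YLS9. It had 4.31, 3.08 and 1.37 CPM in Set2_ctrl, against 1.71 and 1.25 CPM in Set1_ctrl, a log2 fold change of 0.99 (SE 0.50) between groups that overlap. It had 1.32 and 3.17 CPM in Set1_2hJA and 5.11, 4.70 and 1.83 CPM in Set2_2hJA, and both ranges overlapped those of their controls. NHL10 rested on 10 to 53 counts per library. The background per kb of Set2_2hJA replicate 1 would meet 9.25 of the 48 counts there.

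WRKY29, a transcription factor downstream of the MAP kinase cascade of flagellin signalling, is on chromosome 4 (12291632-12293367, plus strand, 3 exons). It was the least variable of the 8 genes. It had 5.52, 6.3 and 6.59 CPM in Set2_ctrl, against 4.60 and 6.93 CPM in Set1_ctrl. After JA it had 5.2 CPM in each of the Set1_2hJA libraries and 6.25, 8.6 and 7.17 CPM in Set2_2hJA. The background per kb of Set2_2hJA replicate 1 would meet 12.3 of the 58.8 counts there. The log2 fold change was 0.10 (SE 0.26) for Set2_ctrl over Set1_ctrl, -0.17 (SE 0.29) for JA in Set1 and 0.25 (SE 0.20) for JA in Set2, and the ranges overlapped in these comparisons. The level of WRKY29 is uncertain in 4 libraries, in which its expected count was a fraction and became whole only when summed with that of GH9B15, a gene that overlaps it by 251 bases on the opposite strand.

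**Figure D1:**
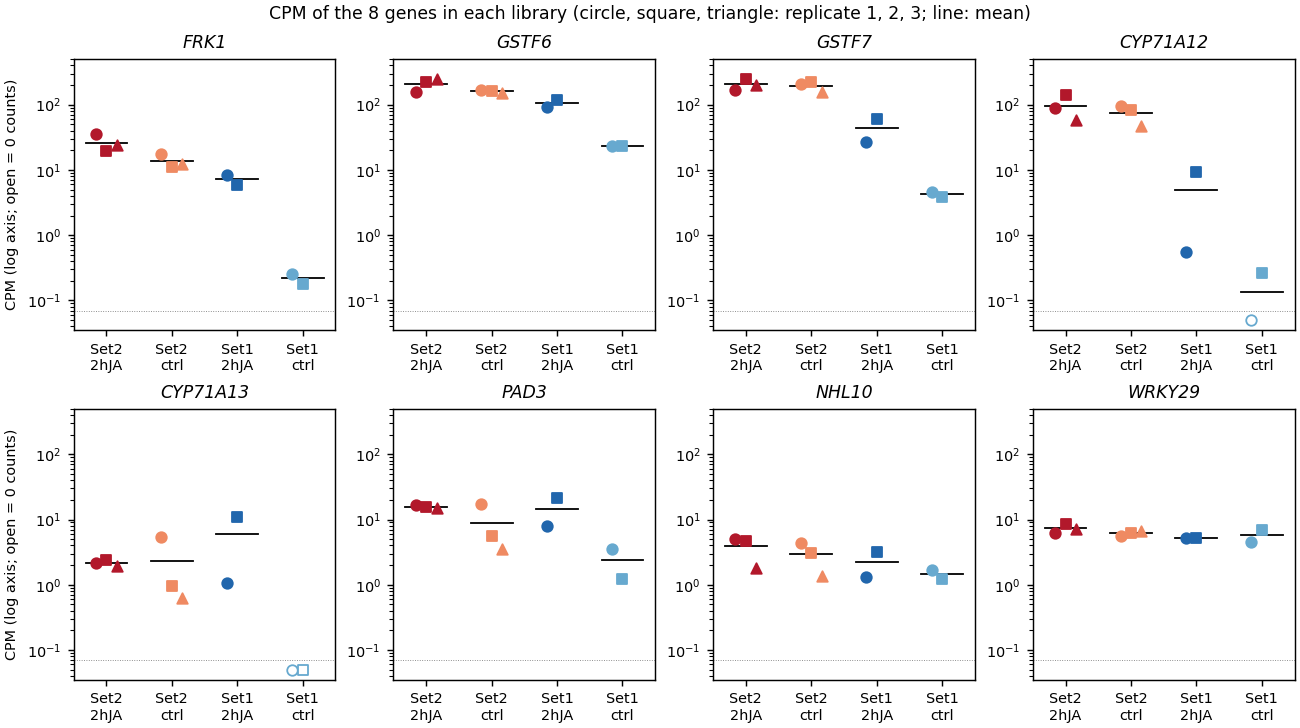
CPM of each of the 8 genes (log axis) in the 10 libraries, with the groups Set2_2hJA, Set2_ctrl, Set1_2hJA and Set1_ctrl along the x axis, symbols for replicates, lines for group means and open symbols for 0 counts drawn below the dotted line. FRK1, GSTF6, GSTF7 and CYP71A12 are lowest in both Set1_ctrl libraries, while WRKY29 stays between 4.60 and 8.6 CPM throughout.

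GSTF6 and GSTF7 are neighbouring phi class glutathione S-transferases on the minus strand of chromosome 1 (661088-662475 and 658578-659980), and GSTF6 has been linked to the glutathione step of camalexin synthesis. GSTF6 had 165.0, 162.3 and 151.2 CPM in Set2_ctrl, against 23.4 and 23.5 CPM in Set1_ctrl, a log2 fold change of 2.78 (SE 0.15). GSTF7 had 206.0, 220.8 and 154.0 CPM in Set2_ctrl, against 4.64 and 3.79 CPM in Set1_ctrl, a log2 fold change of 5.52 (SE 0.25). Neither pair of groups overlapped, and the gap between the sets was wider for GSTF7 than for GSTF6.

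With JA, GSTF6 had 92.4 and 120.0 CPM in Set1_2hJA, a log2 fold change of 2.16 (SE 0.20) over Set1_ctrl. It had 157.9, 220.8 and 251.8 CPM in Set2_2hJA, a log2 fold change of 0.40 (SE 0.16), and this range overlapped that of Set2_ctrl. GSTF7 had 26.9 and 59.5 CPM in Set1_2hJA, a log2 fold change of 3.34 (SE 0.41), and 167.1, 250.3 and 202.5 CPM in Set2_2hJA, a log2 fold change of 0.09 (SE 0.18). The GSTF7 ranges overlapped with and without JA in Set2, whereas in Set1 both treated libraries lay above both untreated ones.

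Part of the reads of both genes cannot be assigned to a single one. Their coding sequences (627 and 630 bases) are 94.3% identical, and the expected counts of GSTF6 and GSTF7 were fractions in all 10 libraries but whole when summed, so that reads were divided between them. Windows of 75 bases were compared, about the length implied by the effective lengths in the deposited tables. Of those of the GSTF6 transcript, 4.77% occur unchanged in that of GSTF7, and 4.65% the other way. The longest identical run covers coding bases 310 to 425 of GSTF6 and 313 to 428 of GSTF7 and is shown because reads inside it fit both genes.
GSTF6 and GSTF7: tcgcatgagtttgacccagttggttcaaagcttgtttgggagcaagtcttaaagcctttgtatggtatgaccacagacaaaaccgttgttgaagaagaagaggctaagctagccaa
Summed to a single feature, GSTF6 and GSTF7 had a log2 fold change of 3.68 (SE 0.18) for Set2_ctrl over Set1_ctrl, 2.42 (SE 0.24) for JA in Set1 and 0.24 (SE 0.16) for JA in Set2. Per length, the ratio of GSTF7 to GSTF6 in TPM was 0.946, 1.03 and 0.789 in Set2_ctrl, against 0.163 and 0.123 in Set1_ctrl. It was 0.250 and 0.401 in Set1_2hJA and 0.801, 0.848 and 0.606 in Set2_2hJA. GSTF6 was thus ahead in every library but Set2_ctrl replicate 2, and the ratio was higher in all Set2 libraries than in the Set1 libraries.

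CYP71A12 and CYP71A13 lie on the minus strand of chromosome 2 (13099486-13101371 and 13109909-13111988, 4 exons each). Their coding sequences have the same length of 1494 bases and are 90.4% identical, with no shared 75-base window between the transcripts. CYP71A12 had 94.7, 84.2 and 47.0 CPM in Set2_ctrl, against 0 and 0.267 CPM in Set1_ctrl, which held 0 and 3 counts. The ratio of 1673 to 3 summed counts was 578 with a counting interval of 197 to 2804. The level in untreated Set2 seedlings was high in all 3 libraries, and the gene was next to silent in Set1_ctrl. In Set1_2hJA it had 0.545 and 9.32 CPM (7 and 156 counts), a ratio to Set1_ctrl of 42.2 (14.2 to 206.7) that rests on replicate 2. In Set2_2hJA it had 89.6, 141.0 and 58.3 CPM, a log2 fold change of 0.36 (SE 0.33) with overlapping groups.

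CYP71A13 followed another order. It had 5.31, 0.952 and 0.623 CPM in Set2_ctrl, while Set1_ctrl was assigned no count. By assigned counts it was at least 17.6-fold higher in Set2_ctrl, against a floor of 3 counts over the group. In Set1_2hJA it had 1.06 and 11.1 CPM, by assigned counts at least 51.5-fold higher than in Set1_ctrl. This fold rests on replicate 2, with 185.6 counts against 13.6 in replicate 1. In Set2_2hJA it had 2.15, 2.37 and 1.91 CPM, within the range of Set2_ctrl. Of the 20.3 counts in Set2_2hJA replicate 1, 13.2 would be met by the background per kb of that library. The expected count of CYP71A13 was a fraction in 8 libraries and whole in all 8 when summed with AT2G30766, a gene that overlaps it by 572 bases on the opposite strand. CYP71A13 was assigned 10.06% and 54.0% of the counts of this pair in Set1_2hJA, and between 3.78% and 13.1% in the Set2 libraries. In Set1_ctrl the pair held 33 and 90 counts, all assigned to AT2G30766. The pair held 135 and 344 counts in Set1_2hJA, and 341, 148 and 120 in Set2_ctrl. The folds over Set1_ctrl are thus no lower bounds if counts of the pair were assigned to the wrong gene. The level of CYP71A13 is therefore uncertain, since the use of read strand in the counting is not stated.

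The balance of the nitrile-forming enzymes was followed library by library. The TPM ratio of CYP71A12 to CYP71A13 was 17.9, 88.7 and 75.03 in Set2_ctrl, and 41.6, 59.4 and 30.5 in Set2_2hJA. It was 0.514 and 0.840 in Set1_2hJA, and in Set1_ctrl, without a count of CYP71A13, it cannot be given. All Set2 libraries thus had more CYP71A12 than CYP71A13, and both Set1_2hJA libraries had less, replicate 1 with only 7 counts of CYP71A12 and 13.6 of CYP71A13. With all reads of the pair given to CYP71A13, a setting chosen after seeing the data, the ratio would be 2.06, 4.25 and 2.84 in Set2_ctrl, 5.33, 4.21 and 4.0 in Set2_2hJA and 0.0517 and 0.453 in Set1_2hJA. With none given to it, CYP71A13 would have no count in the 8 libraries and no ratio.

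**Figure D2:**
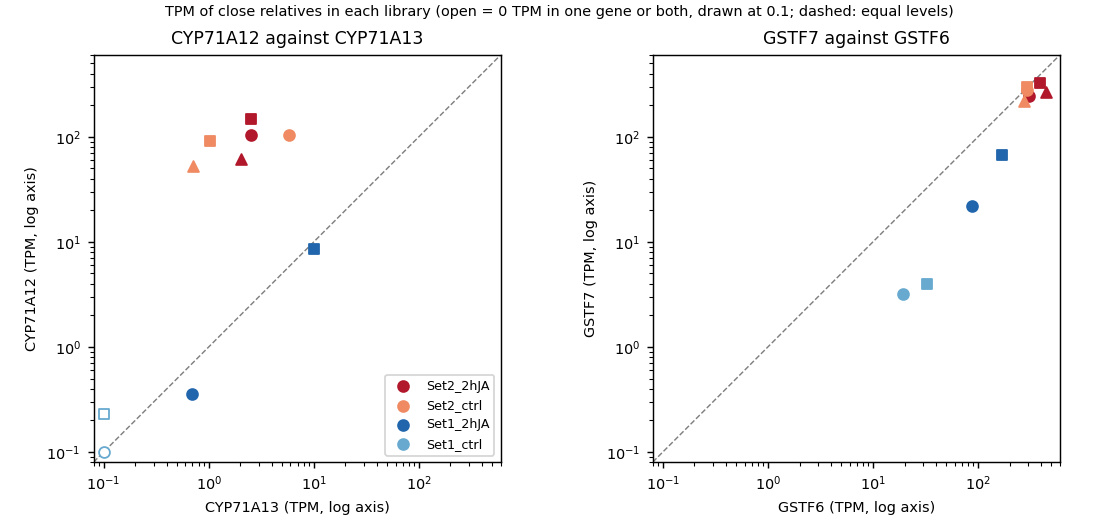
TPM of CYP71A12 against CYP71A13 (left) and of GSTF7 against GSTF6 (right), both axes on a log scale, one symbol a library with circle, square and triangle for replicates 1, 2 and 3 (open, at 0.1, where a gene has 0 TPM), colours for groups and a dashed line of equal levels. The Set2 libraries lie at CYP71A12 to CYP71A13 ratios from 17.9 to 88.7, and the Set1_2hJA libraries lie below the line at 0.514 and 0.840.

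PAD3 (CYP71B15), which carries out the final step to camalexin, is on chromosome 3 (9887917-9889791, plus strand, 2 exons). It had 17.4, 5.63 and 3.57 CPM in Set2_ctrl, against 3.5 and 1.25 CPM in Set1_ctrl, a log2 fold change of 1.90 (SE 0.70). The lowest Set2_ctrl library lay just above the highest Set1_ctrl library. It had 7.87 and 21.5 CPM in Set1_2hJA, a log2 fold change of 2.61 (SE 0.60), and 16.9, 15.3 and 14.8 CPM in Set2_2hJA, a log2 fold change of 0.83 (SE 0.45). The mean level of PAD3 was 15.7 CPM in Set2_2hJA and 14.7 CPM in Set1_2hJA, and in Set2 replicate 1 it was as high without JA as with it. The background per kb of Set2_2hJA replicate 1 would meet 15.7 of the 159 counts there.

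The replicates of Set1_2hJA differed in these genes. Replicate 2 exceeded replicate 1 by 17.1-fold for CYP71A12, 10.5-fold for CYP71A13, 2.74-fold for PAD3, 2.39-fold for NHL10 and 2.21-fold for GSTF7. For FRK1 the ratio was 0.703, for GSTF6 1.3 and for WRKY29 0.999. The ratio was thus largest for the camalexin P450 genes, and FRK1 was lower in replicate 2. The libraries also differed in plastid counts, which took 11.4% of the total in replicate 1 and 0.684% in replicate 2. The part of this difference in the levels was not tested.

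Ordered by TPM, which allows genes to be compared per length, the members ran in Set2_ctrl as GSTF6 (287.5), GSTF7 (265.4), CYP71A12 (82.6), FRK1 (8.14), PAD3 (8.09), WRKY29 (7.30), NHL10 (4.67) and CYP71A13 (2.51). GSTF6 and GSTF7 overlapped in range, as did each neighbour from FRK1 to CYP71A13, and CYP71A12 stood apart from both sides. In Set1_ctrl the mean order was GSTF6 (26.0), WRKY29 (4.53), GSTF7 (3.59), NHL10 (1.45), PAD3 (1.24), CYP71A12 (0.115), FRK1 (0.08) and CYP71A13 (0). CYP71A12 was thus the third most abundant transcript of the group in untreated Set2 seedlings and was at or near 0 in untreated Set1 seedlings.

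A gene was called at an adjusted p of at most 0.05 (edgeR quasi-likelihood test, Benjamini-Hochberg over all genes tested) and a change of at least 2-fold. As the members were selected on these contrasts, their counts stand beside the share of all genes and nothing is read from them. In Set2_ctrl against Set1_ctrl, 4 of the 7 members that passed the filter were called higher (FRK1, GSTF6, GSTF7 and CYP71A12), where 4.17% of all 19269 genes were. None was called lower, where 3.47% of all genes were. FRK1 and CYP71A12, with 5 and 3 summed counts in Set1_ctrl, passed that filter only through Set2_ctrl. In Set1_2hJA against Set1_ctrl, 3 of 7 (FRK1, GSTF6 and GSTF7) were called higher, where 2.94% of 20098 genes were called higher and 2.2% lower. With the replicate number as a block, 5 were called, CYP71A13 and PAD3 in addition. The block also raised the calls over all 20098 genes, from 591 to 765 higher and from 442 to 603 lower. FRK1 and CYP71A13 passed the filter there only through Set1_2hJA. Fits without a Set1 library leave 1 library in a group, and their counts are not read. In Set2_2hJA against Set2_ctrl, 0 of 8 were called, where 1.78% of 19259 genes were called higher and 0.758% lower. At an unadjusted p under 0.05, 2 members were higher there, where 3508 of all 19259 genes differed in either direction. DESeq2 and limma called 0 members. Without Set2_2hJA replicate 2 FRK1 was called, where 312 of all 19664 genes were called higher and 138 lower. Without Set2_ctrl replicate 1 PAD3 was called, where 337 of all 19669 genes were called higher and 142 lower. The interaction of set and treatment, a test of unequal JA responses, called 0 of 20213 genes with edgeR (0%) and therefore none of the members. At an unadjusted p under 0.05 it held 1438 genes, 5 members among them. With the replicate number as a block it called 61 genes, 4 members among them (FRK1, GSTF6, GSTF7 and CYP71A12, all with a smaller JA response in Set2). Without Set2_2hJA replicate 1 it called 5 genes higher and 4 lower of 19710, FRK1 and GSTF6 among them. DESeq2 called 137 genes and 3 members, and limma called 2 genes and 0 members.

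Whether other genes of the same pathway shared the difference between untreated seedlings was asked with 87 genes in lists by role. The selection of the members did not use them. The lists were, however, chosen with earlier results of these data known, so they are not an independent test. Of 80 tested, 30 were higher in Set2_ctrl than in Set1_ctrl and 0 were lower (edgeR, adjusted p at most 0.05 and 2-fold), where 4.17% and 3.47% of all genes were. Many of the 30 passed the filter only through Set2_ctrl, with 0 to 34.75 summed counts in Set1_ctrl. They are at least FOX1, CYP82C2, MPK11, GSTF3, ANAC042, RLP23, PER4, SARD1, GSTU4, CYP81F2, PUB24 and WRKY53. As they entered the test through the group where they are high, their calls are a description. At an unadjusted p under 0.05, 42 listed genes were higher and 2 lower, where 6287 of all 19269 genes differed in either direction. DESeq2 called 28 higher and 0 lower, where it called 820 of all 28007 genes higher and 638 lower. Limma on log2(TPM + 1) called 45 higher and 0 lower, but it called 3521 of all 20885 genes higher, with their median shifted to 0.59. Their median log2 fold change was 0.58, against 0.01 over all genes tested, whose middle 50% lay between -0.33 and 0.35. Adjusted p-values of the 30 called genes lay between 0.000431 and 0.0471. Without Set1_ctrl replicate 1, the library with the most ribosomal RNA, fewer of them were called higher. That fit leaves 1 Set1_ctrl library, and fewer of all genes were called in it as well. The summed level of the 10 leaf markers was 37123 to 44821 CPM in Set2_ctrl and 65409 to 67376 CPM in Set1_ctrl. Of the 10 markers, 2 were called lower in Set2_ctrl (LHCB1.2 and LHCA1). The markers did not move together. LHCB1.1, LHCB2.1 and RBCS1A had log2 fold changes of -0.94, -0.91 and -0.61, while RCA and CA1 had -0.02 and -0.07. GAPA1, FAMA and MYB60 had 0.10, 0.35 and 0.59. That of the 15 root markers was 110.3 to 126.2 CPM in Set2_ctrl and 113.7 to 132.1 CPM in Set1_ctrl, with none called. Fewer cells of a type and less RNA per cell cannot be told apart in whole seedlings, and the part of the leaf markers in the result was not tested.

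**Figure D3:**
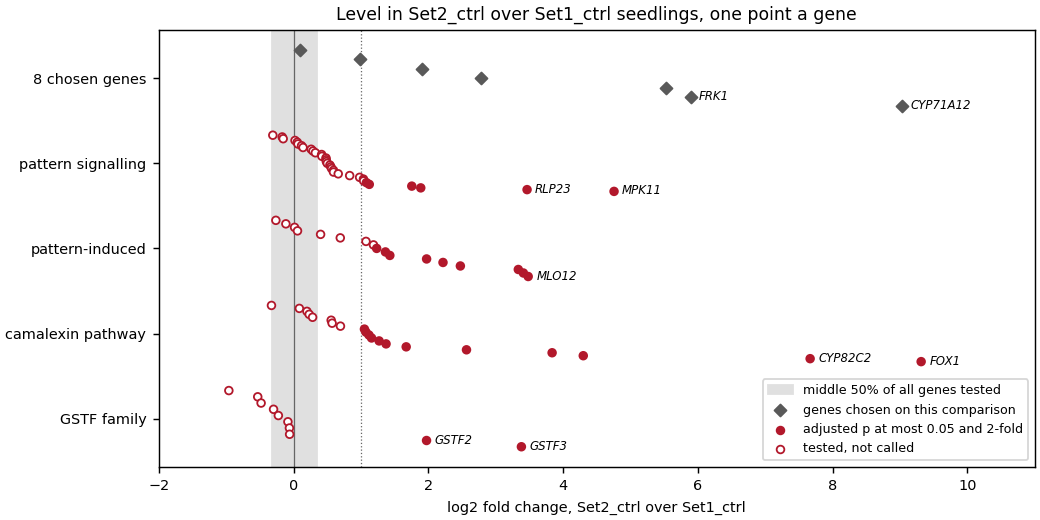
Log2 fold change of Set2_ctrl over Set1_ctrl (x axis) for the members and each list (rows), one point a gene, with called genes filled, genes not called open, the members as grey diamonds because they were chosen on this comparison, and the middle 50% of all genes tested shaded. Of the 80 listed genes tested, the 30 called lie to the right of the 2-fold line (dotted) and none lies below -1. The positions of FOX1, CYP82C2 and CYP71A12, with 0 to 3 counts in Set1_ctrl, depend on the prior count of the fit.

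Among the receptors and kinases of pattern signalling, 7 of 33 were higher in Set2_ctrl and the median log2 fold change was 0.50. MPK11, a MAP kinase, had 60 summed counts in Set2_ctrl and 2 in Set1_ctrl, a ratio of 31.1 (8.24 to 262.5, counting error only). MPK11 and RLP23 passed the filter only through Set2_ctrl. RLP23, the receptor of the peptide nlp20, had a log2 fold change of 3.47 (SE 0.81) and was not called without Set1_ctrl replicate 1 or 2 or Set2_ctrl replicate 3. EFR, the receptor of elongation factor Tu, averaged 8.84 ± 0.90 CPM in Set2_ctrl (SD, n = 3) and 2.39 ± 0.12 CPM in Set1_ctrl (SD, n = 2), a log2 fold change of 1.89 (SE 0.24). SOBIR1, an adaptor kinase of receptor proteins, had a log2 fold change of 1.75 (SE 0.21), and its expected count was a fraction in all 10 libraries. The flagellin receptor FLS2, the oxidase RBOHD and the kinase BIK1 were the other 3 called, at log2 fold changes from 1.04 to 1.12. They were close to the 2-fold threshold, and each lost its call without at least 1 library.

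Of the genes known to be induced by patterns, 9 of 17 tested were higher in Set2_ctrl, with a median log2 fold change of 1.23. MLO12, a membrane protein of the MLO family, averaged 21.9 ± 3.25 CPM in Set2_ctrl (SD, n = 3) and 1.96 ± 0.13 CPM in Set1_ctrl (SD, n = 2), a log2 fold change of 3.48 (SE 0.23). IOS1, a leucine-rich repeat receptor kinase, averaged 53.0 ± 17.4 CPM in Set2_ctrl and 5.0 ± 0.41 CPM in Set1_ctrl, a log2 fold change of 3.41 (SE 0.31). PER4, a peroxidase, and CBP60g, a transcription factor of salicylic acid synthesis, had log2 fold changes of 3.34 (SE 0.55) and 2.48 (SE 0.25). These 4 genes were called under all 13 alternative settings tried for them. WRKY53, SARD1, PUB22, PUB23 and PUB24 were the other 5, at log2 fold changes from 1.23 to 2.22. WRKY53, SARD1 and PUB24, like PER4, passed the filter only through Set2_ctrl. Of 13 alternatives, SARD1 lost its call in 7, PUB24 in 6, PUB22 in 5 and WRKY53 in 3, most of them without 1 library, while PUB23 was called in all.

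Of the camalexin list, 12 of 20 tested were higher in Set2_ctrl, with a median log2 fold change of 1.1. This list also holds genes outside camalexin synthesis, such as those of a side branch and of indole glucosinolates. The largest differences were in the side branch, which leads from indole-3-acetonitrile to 4-hydroxyindole-3-carbonyl nitrile. FOX1, its oxidase, had 195 counts in Set2_ctrl and 0 in Set1_ctrl, at least 67.3-fold higher. CYP82C2, its hydroxylase, had 62 and 0, at least 21.4-fold higher. Both passed the filter only through Set2_ctrl, as did CYP81F2, ANAC042 and GSTU4. CYP81F2, which modifies indole glucosinolates, averaged 22.5 ± 2.27 CPM in Set2_ctrl (SD, n = 3) and 1.14 ± 0.40 CPM in Set1_ctrl (SD, n = 2), a log2 fold change of 4.30 (SE 0.27). ANAC042, a NAC factor of camalexin induction, had a log2 fold change of 3.84 (SE 0.53). WRKY33, the factor that activates PAD3 and CYP71A13, averaged 39.1 ± 5.42 CPM in Set2_ctrl and 12.4 ± 0.63 CPM in Set1_ctrl, a log2 fold change of 1.67 (SE 0.17). The other 7 called were GSTU4, PEN3, AAO1, ABCG34, MYB51, CYP71B6 and ATR2, at 1.05 to 2.57. Of these, GSTU4 lost its call in 4 of 13 alternatives, MYB51 in 3, ATR2 in 2 and PEN3 and ABCG34 in 1, each time without 1 library, Set1_ctrl replicate 1 for PEN3 and ABCG34. CYP79B2, CYP79B3, CYP83B1 and GGP1 were not called in this comparison.

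The phi class glutathione S-transferases showed no shared difference. Of 10 tested besides GSTF6 and GSTF7, GSTF2 and GSTF3 were higher in Set2_ctrl and the median log2 fold change was -0.16. GSTF2 averaged 220.7 ± 8.79 CPM in Set2_ctrl and 56.6 ± 8.92 CPM in Set1_ctrl, a log2 fold change of 1.97 (SE 0.16). GSTF3 had 43 summed counts in Set2_ctrl and 4 in Set1_ctrl, a ratio of 11.1 (4.05 to 42.7, counting error only), and it lost its call without either Set1_ctrl library. GSTF2 had a fractional count in all 10 libraries. The 2 receptor kinase genes beside FRK1, AT2G19210 and AT2G19230, had no count in Set1 and at most 8 summed counts in Set2_ctrl. In Set2_2hJA they had 23 and 18 summed counts, mostly from 1 library (highest 2.34 and 1.91 CPM, medians 0.134 and 0 CPM). They passed no filter and were not tested.

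The same lists were then set against JA in each set. In Set1_2hJA against Set1_ctrl, 13 of 73 tested were higher and 2 lower (2.94% and 2.2% of all genes). With the replicate number as a block, 16 were higher and 2 lower. ZAT12, GSTU4, ABCG40 and GSTF14 gained the call (edgeR adjusted p between 0.00234 and 0.0155) and ATR2, at a log2 fold change of 0.98, lost it. In Set2_2hJA against Set2_ctrl, 8 of 81 were higher and 0 lower (1.78% and 0.758% of all genes). At an unadjusted p under 0.05, 20 were higher and 4 lower, where 3508 of all 19259 genes differed in either direction. DESeq2 called 8 higher and limma 7, and both called 0 lower. Adjusted p-values lay between 0.000792 and 0.0452 for the genes called in Set1, and between 0.000114 and 0.0251 for those called in Set2. The summed leaf markers stood at 42364 to 42521 CPM in Set1_2hJA and 65409 to 67376 CPM in Set1_ctrl, with 1 of 10 called lower (LHCB2.1). They stood at 26187 to 38231 CPM in Set2_2hJA and 37123 to 44821 CPM in Set2_ctrl, with none called. Of the 15 root markers only NRT2.1 was called, higher after JA in both sets. The part of these markers in the result was not tested. There were 7 genes called higher in both sets, namely CYP79B2, CYP79B3, CYP83B1, GGP1, GSTF11, PEPR2 and ZAT6, of 73 tested in both. The share of all genes called in both sets was not computed, and nothing is read from this count.

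The genes called in both sets included those that supply and process the aldoxime. CYP79B3 averaged 381.4 ± 95.9 CPM in Set1_2hJA and 46.4 ± 3.52 CPM in Set1_ctrl (SD, n = 2 each), a log2 fold change of 3.02 (SE 0.23). In Set2 it averaged 239.2 ± 32.1 CPM in Set2_2hJA and 48.9 ± 4.89 CPM in Set2_ctrl (SD, n = 3 each), a log2 fold change of 2.29 (SE 0.14). On the log2 scale CYP79B2 rose by 2.46 (SE 0.28) in Set1, and by 1.80 (SE 0.13) in Set2. CYP83B1, which takes the aldoxime into indole glucosinolates, rose by 2.64 (SE 0.21) in Set1 and by 1.94 (SE 0.13) in Set2. GGP1, a peptidase that trims the glutathione conjugate, rose by 2.78 (SE 0.23) in Set1 and by 1.55 (SE 0.16) in Set2. These 4 genes were called in both sets under all alternatives, 12 in Set1 and 15 in Set2. Their untreated levels lay within 2-fold of each other between the sets, unlike those of CYP71A12, GSTF7 and FRK1.

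Outside the camalexin list, GSTF11 rose by 2.29 log2 units (SE 0.18) in Set1 and by 1.77 (SE 0.21) in Set2, with fractional counts in 9 libraries. GSTF12, GSTF9 and GSTF10 rose in Set1 by 2.09 (SE 0.18), 1.43 (SE 0.18) and 1.37 (SE 0.25). In Set2 their log2 fold changes were 1.14 (SE 0.38, edgeR adjusted p = 0.134), 0.99 (SE 0.13, adjusted p = 0.00325) and 0.78 (SE 0.16, adjusted p = 0.0202), the last 2 below the 2-fold threshold. A difference between the sets was not called for them. PEPR2, a receptor of the plant's own Pep peptides, rose by 1.66 (SE 0.33) in Set1 and by 1.39 (SE 0.29) in Set2. ZAT6, a zinc finger factor, rose by 2.06 (SE 0.41) and by 1.66 (SE 0.32), and IOS1 rose by 1.41 (SE 0.22) in Set1. PEPR2, ZAT6 and IOS1 each lost a call when a single library was left out. The 2 genes that fell, both in Set1, were PHI-1, a phosphate-induced cell wall protein, by 2.18 (SE 0.37), and LORE, a receptor of bacterial fatty acids, by 1.02 (SE 0.23). LORE lost its call in 6 of 12 alternatives, and PHI-1 lost it with limma and without Set1_2hJA replicate 1. None of the 82 listed genes tested for the interaction was called with edgeR. At an unadjusted p under 0.05, 4 were higher and 13 lower in Set2, where 1438 of all 20213 genes differed in either direction. DESeq2 called 4 lower and limma 0, and the blocked fit called FOX1, which had 0 counts in Set1_ctrl.

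**Figure D4:**
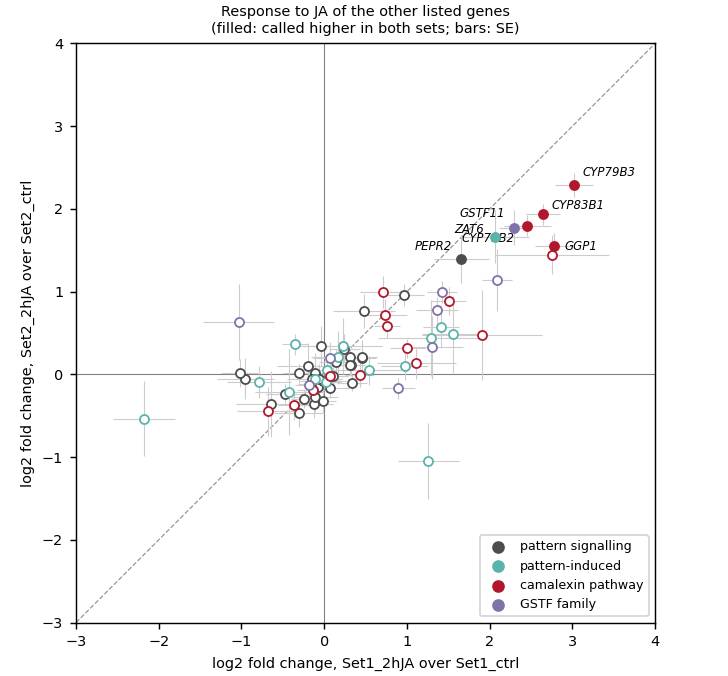
Log2 fold change with JA in Set1 (x axis, Set1_2hJA over Set1_ctrl) and in Set2 (y axis, Set2_2hJA over Set2_ctrl) of the 73 listed genes tested in both, with SE bars, colours for lists, filled points for the 7 genes called higher in both sets and a dashed line of equal change. CYP79B3 has the largest values, 3.02 in Set1 and 2.29 in Set2.

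The likeness of the 8 members over the 10 libraries differed from pair to pair. The Pearson correlation of log2 CPM was 0.98 between GSTF6 and GSTF7 and 0.97 between FRK1 and GSTF6 as well as between GSTF7 and CYP71A12. It was 0.91 between CYP71A13 and PAD3, 0.75 between CYP71A12 and CYP71A13, and 0.02 between PAD3 and WRKY29. These values describe libraries that share a set, its depth and its composition. Of 17924 genes, those closest to the mean of the standardised members were HA4, which encodes a plasma membrane proton pump (AT3G47950, r = 0.97), ALG10 (AT5G02410, r = 0.97) and FOX1 (r = 0.96). HA4 averaged 5.22 ± 0.51 CPM in Set2_2hJA, 4.29 ± 0.26 CPM in Set2_ctrl, 3.28 ± 0.78 CPM in Set1_2hJA and 2.14 ± 0.37 CPM in Set1_ctrl. FOX1 had 8.38 ± 2.65 CPM in Set2_2hJA, 8.79 ± 1.60 CPM in Set2_ctrl and 3.70 ± 4.24 CPM in Set1_2hJA, and like CYP71A12 it was higher in Set1_2hJA replicate 2 (6.69 CPM) than in replicate 1 (0.701 CPM).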

How the data were processed

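RNA-seq libraries were made from total RNA of whole seedlings with a stranded mRNA kit. Per the labels the authors aligned reads to TAIR10 with STAR 2.7.5a, quantified genes with RSEM 1.3.3 and used edgeR 3.36.0. The deposited tables hold RSEM expected counts, which divide shared reads between genes and need not be whole, and TPM, which the authors scaled to effective length and library. The authors' deposited edgeR tables of JA against ctrl hold log2 fold changes, average log2 CPM, p-values and FDR and were not used. Whether counting used the read strand is not given in the sources used here.

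Expected counts were rounded and fitted with edgeR 4.0.16 in R 4.3.3 (filterByExpr, TMM, quasi-likelihood F test, Benjamini-Hochberg over all genes), each comparison on its own groups and the interaction on all 10 libraries. SE is the log2 fold change over the root of F. Alternatives used limma 3.58.1 on log2(TPM + 1) and DESeq2 1.42.0. Interval and floor folds (3 counts over the group) cover counting error only. The fits were tested on simulated data. Sequences, positions and symbols are from RefSeq TAIR10.1, where 99.3% of 21304 single-transcript genes had the length of the deposited tables and 121 of 125 symbols were listed for the same gene. The upstream window of 1 member is not reported here. Groups and replicate numbers came from sample titles. The file names number the Set1_ctrl libraries the other way round, and crossed numbers there give -0.39, which with 2 libraries a group mirrors the value below. The Set1 block and the name of each Set1_ctrl library rest on the titles. Libraries of equal number deviated together from their group means (correlation 0.39 in Set1 and 0.237, 0.191 and 0.212 in Set2), so the number was used as a block beside the unblocked fits.

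Named genes were the members, up to 4 called genes with the largest change per list, comparison and direction, and the 3 genes most like the members. The other called genes that are listed by name were added after their values were seen. The members and lists were chosen with earlier results of these data known.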

Additional observations from a re-analysis of the deposited data

Results flagged for a closer look

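FOX1, the oxidase of the 4-hydroxyindole-3-carbonyl nitrile branch, passed the test of unequal JA responses between the sets where the replicate number was used as a block (edgeR adjusted p = 0.0162), and had an adjusted p of 0.228 without it. Its counts summed to 204 in Set2_2hJA and 195 in Set2_ctrl, and to 121 in Set1_2hJA and 0 in Set1_ctrl. The size of this interaction depends on the prior count of the fit, since Set1_ctrl had no count, and the Set1_2hJA level rests on replicate 2 (6.69 CPM, with 0.701 CPM in replicate 1).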

How the results depend on the processing

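Among the members, 4 called higher in Set2_ctrl against Set1_ctrl became 7 with limma. In Set1_2hJA against Set1_ctrl, 3 became 5 with library totals only, 5 without organelle and ribosomal RNA genes, 6 without a filter on low counts and 5 with the replicate block, and leaving out a library gave 3 to 6. In Set2_2hJA against Set2_ctrl, leaving out a library gave 0 to 1. For the interaction, 0 called lower became 2 without organelle and ribosomal RNA genes, 4 without a filter, 3 with DESeq2 and 4 with the replicate block, and leaving out a library gave 0 to 2. Among the other listed genes, 30 higher in Set2_ctrl became 13 at a 4-fold threshold and leaving out a library gave 19 to 26. The 0 lower became 2 with no fold threshold, and 0 to 1 on leaving out a library. With JA in Set1, 13 higher became 7 at 4-fold, and 2 lower became 1 at 4-fold, 1 with DESeq2 size factors, 1 with library totals only and 0 with limma, or 0 to 3 on leaving out a library. With JA in Set2, 8 higher became 1 at 4-fold and 14 with no fold threshold. For the interaction, 0 lower became 1 without a filter, 4 with DESeq2 and 1 with the replicate block, or 0 to 1 on leaving out a library. The cause of these shifts was not tested. The replicate block changed no call beyond those given here and in the results. Subtracting the background per kb of the Set2 libraries, an alternative chosen after seeing the data, left the member counts at 4 and 0. It gave 26 other listed genes higher in Set2_ctrl. That background comes from genes without a count in Set1, so it is 0 in Set1 by definition. Genes expressed in Set2 alone would add to it. No alternative turned round the sign of a called member or named gene. Of the 30, 15 and 8 other listed genes called in Set2_ctrl against Set1_ctrl and with JA in Set1 and Set2, 16, 9 and 6 were called under all alternatives that kept the 2-fold threshold. CYP71A13 and the Set1_ctrl values of FRK1 and CYP71A12 rest on few counts.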
